A study of Homo sapiens with 45 samples.

Results

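The histone genes of the cluster on the short arm of chromosome 6 were examined in 15 human breast cancer cell lines. They were taken as the protein-coding genes of GENCODE 29 whose symbol begins with HIST1H and whose start lies between 26000000 and 28000000 on chromosome 6 of GRCh38. By this rule 53 of the 64485 rows of the count table were members, of which 6 code for linker histone H1, 11 for H2A, 14 for H2B, 10 for H3 and 12 for H4. The rule used positions and names and no measured value, but it was chosen with earlier results of these data known. The members lay in 3 blocks along the chromosome, separated by more than 500 kb. The first block held 32 genes over 269 kb (HIST1H1A to HIST1H4H, 26017085 to 26285638), the second 5 genes over 21.6 kb (HIST1H2BJ to HIST1H2AH, 27125897 to 27147515) and the last 16 genes over 86.4 kb (HIST1H2BL to HIST1H2BO, 27807444 to 27893843). The neighbouring HIST1H2AA and HIST1H2BA started below the window and did not exceed 2.69 and 14.9 CPM in any line, CPM being the counts of a gene scaled to the total of its library.

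Histone proteins package DNA: H2A, H2B, H3 and H4 form the core of the nucleosome, and H1 binds the linker DNA between nucleosomes. Most genes of this cluster are replication-dependent histone genes, which are transcribed when cells copy their DNA in S phase. Their mRNAs end in a short stem loop in place of a poly(A) tail. NPAT is the coactivator that drives their transcription, and SLBP binds the stem loop.

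All lines were labelled wild type, were given no treatment and carried the cell type label epithelial. Growth medium was the condition that differed. L-15 was used for MDA-MB-468, MDA-MB-157, MDA-MB-453, MDA-MB-231 and, with added insulin and glutathione, MDA-MB-436. RPMI 1640 was used for BT-549 (with insulin), HCC38, HCC70, HCC1143, HCC1187, HCC1395, HCC1806 and HCC1937. BT-20 grew in EMEM with insulin and Hs578T in DMEM. Each line had 3 replicates, 45 libraries in all, made from total RNA after removal of ribosomal RNA, so that mRNAs without a poly(A) tail could be measured. Nothing in the labels says that replicates came from separate cultures, so the spread behind each p-value is that of these samples and could be technical.

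Libraries held 2312138 to 14653677 gene counts (median 6263573), and the members took 0.22 to 1.06% of them (median 0.525%). Each of the 45 libraries was closest to a library of its own line, and no pair of libraries was identical. Hs578T replicate 2 had the fewest counts, the most genes detected (40272, lowest library 27967) and the highest mitochondrial share (0.782%, lowest library 0.0502%), and its member sum of 2330 CPM lay below the 5020 and 4500 CPM of Hs578T replicates 1 and 3. Of 5 epithelial markers, CDH1 was near 0 in BT-549, HCC1395, MDA-MB-231, MDA-MB-157, MDA-MB-436 and Hs578T, EPCAM in BT-549, HCC1395 and Hs578T, KRT19 in BT-549 and Hs578T, and KRT8 in BT-549, which goes against the epithelial label for those genes. KRT18 had 2810 CPM in BT-20 and 2.94 CPM in BT-549. The mesenchymal markers COL1A1, COL1A2, VIM and ZEB1 ranged up to 190, 1900, 3990 and 177 CPM. Summed blood markers stayed between 1.14 and 7.82 CPM, with PTPRC at most 5.01 CPM. Summed endothelial markers reached 119 CPM in BT-20, of which CDH5 gave 113 CPM, while VWF, TEK and PECAM1 did not exceed 2.68, 14.2 and 15.3 CPM in any line. All 5 epithelial, 6 mesenchymal and 5 endothelial markers and the 1 blood marker tested differed among the lines by edgeR. The part of these marker differences in the histone values was not tested.

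The sequences just upstream of several genes that carry the results are shown first, chosen from genes near 0 in some line (HIST1H1D, HIST1H1B, HIST1H3C, HIST1H2BB and HIST1H2AE), a gene on in every line (HIST1H1C) and a gene on in few (HIST1H4F). Each is the stretch of 250 bases that ends at the annotated start in RefSeq (GRCh38.p14), read 5′ to 3′ on the strand of the gene. Capitals mark the word TATAAA wherever it stands on either strand. The shorter word CCAAT and the octamer ATTTGCAT are marked in the same way, so a word on the other strand appears as its reverse complement.
HIST1H1D, chr6:26234988-26235237, minus strand: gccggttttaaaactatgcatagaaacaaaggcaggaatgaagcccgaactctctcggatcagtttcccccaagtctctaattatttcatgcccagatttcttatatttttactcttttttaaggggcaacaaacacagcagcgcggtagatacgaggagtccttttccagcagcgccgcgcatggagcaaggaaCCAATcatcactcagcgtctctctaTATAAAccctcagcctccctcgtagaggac
HIST1H1B, chr6:27867589-27867838, minus strand: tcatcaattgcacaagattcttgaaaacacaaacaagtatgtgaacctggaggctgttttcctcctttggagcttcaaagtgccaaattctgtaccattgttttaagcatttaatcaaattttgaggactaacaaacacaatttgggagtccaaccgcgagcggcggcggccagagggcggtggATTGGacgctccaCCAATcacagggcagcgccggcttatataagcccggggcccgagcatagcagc
HIST1H1C, chr6:26056471-26056720, minus strand: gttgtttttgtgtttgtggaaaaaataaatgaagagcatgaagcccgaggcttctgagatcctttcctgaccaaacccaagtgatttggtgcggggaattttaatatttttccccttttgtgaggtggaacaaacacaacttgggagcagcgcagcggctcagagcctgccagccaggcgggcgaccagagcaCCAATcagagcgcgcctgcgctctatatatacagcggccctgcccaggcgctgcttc
HIST1H3C, chr6:26045134-26045383, plus strand: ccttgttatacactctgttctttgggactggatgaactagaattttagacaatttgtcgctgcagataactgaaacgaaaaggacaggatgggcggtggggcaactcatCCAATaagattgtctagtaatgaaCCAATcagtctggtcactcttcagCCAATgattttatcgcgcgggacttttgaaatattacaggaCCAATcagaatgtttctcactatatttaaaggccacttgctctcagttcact
HIST1H2BB, chr6:26043714-26043963, minus strand: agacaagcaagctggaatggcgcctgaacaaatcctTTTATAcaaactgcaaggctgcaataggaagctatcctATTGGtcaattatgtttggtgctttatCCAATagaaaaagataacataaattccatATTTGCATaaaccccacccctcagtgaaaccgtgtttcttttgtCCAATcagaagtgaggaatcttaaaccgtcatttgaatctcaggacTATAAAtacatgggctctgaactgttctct
HIST1H2AE, chr6:26216671-26216920, plus strand: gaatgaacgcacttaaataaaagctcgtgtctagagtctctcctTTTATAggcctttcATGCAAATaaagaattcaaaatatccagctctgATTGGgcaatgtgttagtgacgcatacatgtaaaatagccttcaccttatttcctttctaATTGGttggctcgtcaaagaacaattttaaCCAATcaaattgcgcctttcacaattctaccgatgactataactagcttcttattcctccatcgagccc
HIST1H4F, chr6:26240143-26240392, plus strand: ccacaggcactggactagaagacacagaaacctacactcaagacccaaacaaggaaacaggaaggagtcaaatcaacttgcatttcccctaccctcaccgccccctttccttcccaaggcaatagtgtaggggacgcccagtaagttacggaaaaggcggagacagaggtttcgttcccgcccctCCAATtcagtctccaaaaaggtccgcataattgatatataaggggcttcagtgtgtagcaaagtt

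A promoter could be matched for 47 of the 53 genes. TATAAA occurred in 31 of them (66.0%, against 11.1% of all 27305 promoters of that length), CCAAT in 40 (85.1%, against 33.0%) and the octamer ATTTGCAT, the word bound by the factor POU2F1, in 18 (38.3%, against 1.66%). The E2F words TTTGGCGC and TTTCCCGC were found in 0 and 1 of the 47 promoters (0.0% and 2.13%, against 0.553% and 1.42%). CCAAT and ATTTGCAT can share letters where they touch, and the other words were counted on their own. Words were counted on either strand, and the stretches of divergent H2A and H2B neighbours overlap, so the same word can count for both genes. An example is HIST1H2BG (26216689 to 26216938) and HIST1H2AE (26216671 to 26216920). All counts of words here are thus of genes and not of separate sequences. Among the 19 genes with a promoter that were near 0 in some line, 11 had TATAAA, 17 had CCAAT and 8 had ATTTGCAT. Among the other 28 the counts were 20, 23 and 10. HIST1H1D and HIST1H2BB had a TATAAA and a CCAAT, and HIST1H3C held CCAAT without TATAAA.

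The 3′ stem loop could be read from the gene models of 19 members, as a perfect or near-perfect stem around a T-rich loop. Of the 53 models 29 hold the coding sequence alone, so a loop that was not found says nothing of the gene. The versions are shown, with the loop in capitals, because members that share one had very different levels in the same line.
HIST1H2AC, HIST1H2AE, HIST1H2BG, HIST1H2BH and 5 others: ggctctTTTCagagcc
HIST1H4B, HIST1H4E, HIST1H4H and HIST1H4J: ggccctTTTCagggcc
HIST1H2BC, HIST1H2BD, HIST1H2BF and HIST1H3G: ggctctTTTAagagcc
HIST1H4I: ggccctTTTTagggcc
HIST1H2AG: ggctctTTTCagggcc
In MDA-MB-231, HIST1H2AE stood at 0.129 CPM and HIST1H2AC at 386 ± 40.4 CPM (SD, n = 3), with the same stem loop.

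The coding sequences were close relatives but, with 1 exception, not copies. The closest other member of the family matched at a median of 89.0% of aligned bases, from 56.2% for HIST1H1T, the testis form of H1, to 100% for HIST1H4J and HIST1H4K. Reads of that pair cannot be told apart within the coding sequence, and how reads with several matches were handled is not given in the sources used here, so their mean levels of 2.87 and 2.85 CPM are uncertain. HIST1H2AI and HIST1H2AJ matched at 96.4%. The proteins were more alike than the genes: all 10 H3 genes encode 1 sequence, as do 11 of the 12 H4 genes, while the 6 H1 genes encode 6 sequences, the 11 H2A genes 6 and the 14 H2B genes 10. HIST1H3D (0 counts) and HIST1H2AD (75 counts) lie wholly within AL031777.3 on the same strand, HIST1H2AL and HIST1H2AK within HIST1H2BN, and HIST1H3J shares 350 bases with HIST1H2AM. HIST1H2BD and HIST1H2BE overlap the antisense gene AL353759.1 by 10585 and 744 bases. The values of these overlapping genes depend on how shared reads were assigned, which is not given in the sources used here.

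Of the 53 members, 50 passed the filter on low counts, and HIST1H3D, HIST1H2AD and HIST1H4G (4 counts) did not. All 50 differed among the 15 lines by edgeR's quasi-likelihood F test at an adjusted p of 0.05, in a table where 98.2% of the 20587 genes tested did so. A share this near the background is no result about the histone genes. For the 42 members with a median line of at least 10 CPM, the line with the most had a median of 42.2 times the CPM of the line with the least. The same ratio was 5.32 over 8841 genes of the table chosen by the same limit.

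Per family, the gene with the highest mean CPM was HIST1H1C for H1 (561 CPM), HIST1H2AE for H2A (240 CPM), HIST1H2BD for H2B (332 CPM), HIST1H3C for H3 (145 CPM) and HIST1H4H for H4 (121 CPM). Per kilobase of annotated exon, the highest means were 874 CPM per kb for HIST1H1C, 535 for HIST1H2AH, 474 for HIST1H1B, 472 for HIST1H2AE and 464 for HIST1H2AJ. The steadiest members across lines were HIST1H1E, with a ratio of 3.25 between its highest and lowest line (254 CPM in HCC1395, 78.0 CPM in HCC38), HIST1H2AG with 3.44 and HIST1H2AH with 3.53. The widest ratios with no line at 0 were 3080 for HIST1H2AE (396 CPM in HCC1806, 0.129 CPM in MDA-MB-231), 2420 for HIST1H3A (152 CPM in HCC1806, 0.0629 CPM in HCC1143) and 1970 for HIST1H1B (632 CPM in HCC1806, 0.322 CPM in MDA-MB-231). HIST1H2AE and HIST1H2AH both encode H2A and stand among the highest genes per kilobase. In MDA-MB-231, HIST1H2AE had 0.129 CPM and HIST1H2AH 101 CPM.

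**Figure D1:**
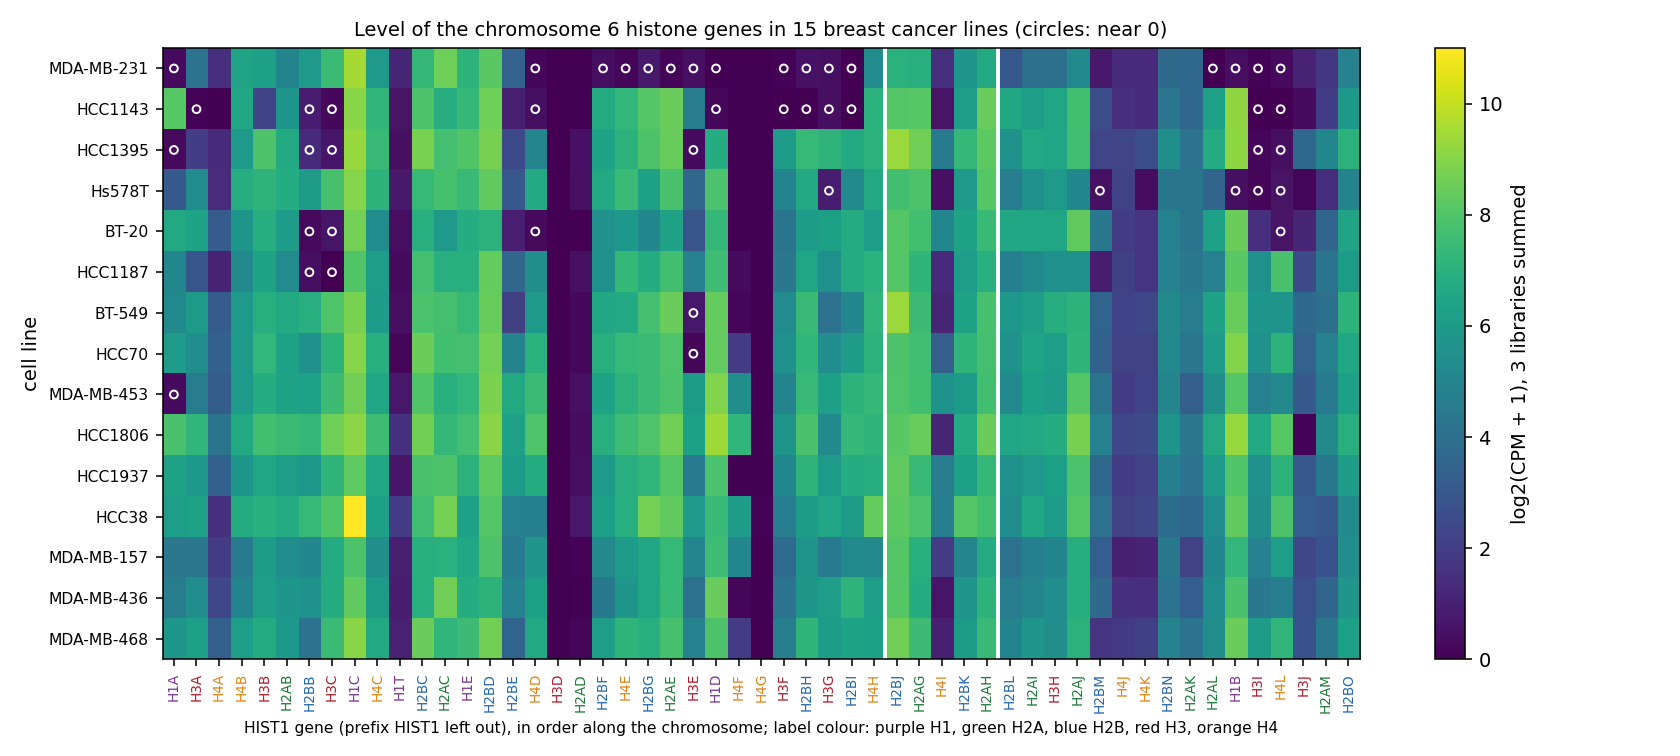
Levels of the 53 histone genes (columns, in chromosomal order, white bars marking gaps over 500 kb) in the 15 lines (rows, ordered by the number of genes near 0), as log2(CPM + 1) of the summed libraries of a line. Circles mark the 47 gene-line pairs near 0, which gather in MDA-MB-231 (16) and HCC1143 (11) and form runs of neighbouring genes.

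A gene was called near 0 in a line where its summed libraries gave under 2 CPM and under 5% of the median of the other 14 lines, and that median was at least 10 CPM. The status comes from the values, so these counts are a description with no test, and the edgeR values printed for such genes support nothing further. A bulk library cannot tell fewer expressing cells from less RNA per cell. Of 637 gene-line pairs that could be judged, 47 were near 0 (7.38%), against 0.963% of 132947 pairs over all genes. They fell on 20 of the 43 genes that could be judged and on 9 of the 15 lines. In 46 of the 47 pairs each of the 3 libraries was under 2 CPM on its own, 9 pairs had no count at all, and the most any pair had was 38 summed counts. By family, 18 of 120 pairs were near 0 for H3 (15.0%), 9 of 90 for H4 (10.0%), 7 of 75 for H1 (9.33%), 11 of 202 for H2B (5.45%) and 2 of 150 for H2A (1.33%).

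MDA-MB-231 had 16 of 43 genes near 0 (37.2%, against 0.768% of all genes in that line), HCC1143 had 11 of 43 (25.6%, against 0.554%) and HCC1395 had 6 of 43 (14%, against 1.95%). Hs578T had 5 of 43 (11.6%, against 1.05%), BT-20 had 4 of 42 (9.52%, against 1.09%) and HCC1187 had 2 of 43 (4.65%, against 1.03%). A single gene was near 0 in BT-549 (background 1.43%), in HCC70 (background 1.38%) and in MDA-MB-453 (background 2.05%), each 2.38% of 42 genes, which is near the background. No member was near 0 in HCC1806, HCC1937, HCC38, MDA-MB-157, MDA-MB-436 or MDA-MB-468, where the background shares were 0.518, 0.339, 0.259, 0.781, 0.645 and 0.587%. The 4 lines whose labels give batch runs 1 and 2 (HCC1143, HCC38, Hs578T and MDA-MB-231) thus include the 2 lines with the most such genes and also HCC38 with none, and the part of the run in these counts was not tested.

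In order along the chromosome the 47 pairs formed 22 runs, a run being genes near 0 in 1 line with no judged gene between them that was not. There were 12 runs of 1 gene and 10 runs of 2 or more, which held 35 of the pairs. The first block held 34 of 390 pairs near 0 (8.72%), the last block 13 of 187 (6.95%) and the small middle block 0 of 60 (0.0%).

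The longest run lay in MDA-MB-231 and took in 11 genes in succession, HIST1H4D, HIST1H2BF, HIST1H4E, HIST1H2BG, HIST1H2AE, HIST1H3E, HIST1H1D, HIST1H3F, HIST1H2BH, HIST1H3G and HIST1H2BI. It spanned 84592 bp (26188765 to 26273356), with levels between 0 and 0.708 CPM. HIST1H1D, a linker histone, had 0, 0 and 0 counts in the 3 MDA-MB-231 libraries, against a median of 238 CPM in the other lines, and was at least 1230-fold lower if a floor of 3 counts is set for the line's summed libraries. HIST1H2AE had 2, 0 and 0 counts in MDA-MB-231, against 71.5 to 475 CPM in the 42 other libraries, which made it 1890-fold lower than the median (95% Poisson interval 524 to 15600). No library of another line overlapped the MDA-MB-231 range for HIST1H2AE. Intervals and floors here cover counting error only.

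HIST1H4E had 2, 0 and 0 counts in MDA-MB-231, 1030-fold below the median of 133 CPM (286 to 8540). HIST1H2BG had 4, 2 and 5 counts, 232-fold below 164 CPM (129 to 464), and HIST1H2BF had 1, 2 and 2 counts, 244-fold below 78.6 CPM (105 to 752). These 3 core histone genes and HIST1H2AE were near 0 in MDA-MB-231 and in no other line. HIST1H2BI had no count in MDA-MB-231 and was at least 486-fold lower. HIST1H4D (0, 2 and 0 counts), HIST1H3F (0, 1 and 0), HIST1H2BH (3, 1 and 3), HIST1H3G (1, 0 and 5) and HIST1H3E (3, 3 and 0) completed the run, and each of them was near 0 in at least 1 other line. The 4 histone genes in between that could not be judged, HIST1H3D, HIST1H2AD, HIST1H4F and HIST1H4G, had no count in MDA-MB-231 and medians of 0 to 0.237 CPM in the other lines. The run ended between genes with reads: HIST1H2BE before it had 10.0 CPM (median of the others 17.4) and HIST1H4H after it 38.6 CPM (130). The nearest non-histone coding genes outside it, HFE and BTN3A2, stood at 16.2 and 55.2 CPM in MDA-MB-231, against medians of 18.3 and 31.3 CPM in the other lines.

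A further run in MDA-MB-231 lay in the last block and held HIST1H2AL, HIST1H1B, HIST1H3I and HIST1H4L over 8156 bp (27865355 to 27873510), at 0 to 0.322 CPM. HIST1H1B, another linker histone, had 3, 2 and 0 counts in MDA-MB-231, 1040-fold below the median of 335 CPM (446 to 3200). HIST1H2AL had 0 counts there and was at least 273-fold lower. HIST1H2BN, whose annotated span includes HIST1H2AL, had 13.1 CPM in the same line against a median of 28.0 CPM. On the outer side of this run, ZNF184 stood at 48.0 CPM in MDA-MB-231 (median of the others 46.5) and OR2B2, an olfactory receptor gene, at 0.451 CPM (0.103). HIST1H2AM, beyond HIST1H4L, was not near 0 by the rule but was called lower by edgeR in MDA-MB-231, at 2.45 CPM against a median of 17.0 CPM (log2 fold change −2.43 ± 0.85, adjusted p 0.0147), and also in HCC1143 (3.02 CPM) and Hs578T (1.71 CPM). The remaining gene near 0 in MDA-MB-231 was HIST1H1A, with 1, 2 and 1 counts (179-fold lower, 69.9 to 657).

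**Figure D2:**
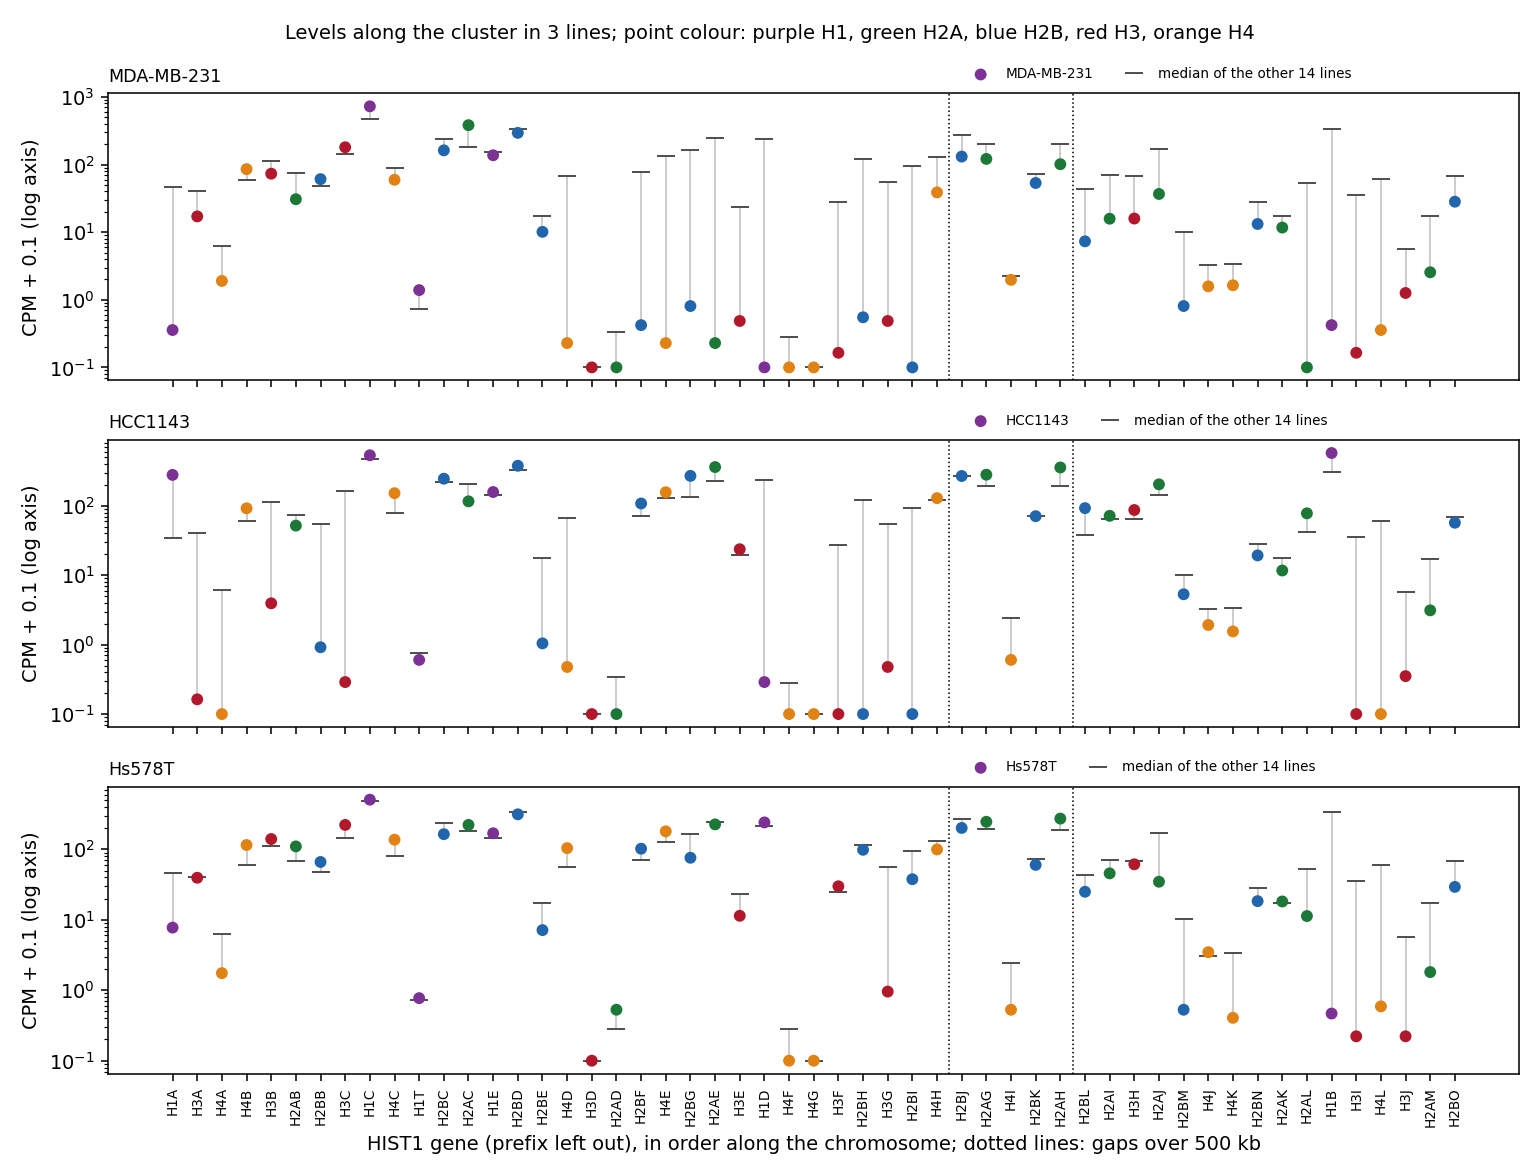
Level of each histone gene along the chromosome (horizontal axis, gene order) in MDA-MB-231, HCC1143 and Hs578T as CPM + 0.1 on a log axis, with a dash for the median of the other 14 lines and colours for the families. Runs of genes at or near the bottom of the axis in MDA-MB-231 and HCC1143 stand next to genes close to the median, such as HIST1H4H at 129 CPM in HCC1143.

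HCC1143 had a run of 5 genes that lay inside the MDA-MB-231 run and ended at the same gene: HIST1H1D, HIST1H3F, HIST1H2BH, HIST1H3G and HIST1H2BI, over 39089 bp (26234268 to 26273356). HIST1H2BH had 0 counts in all 3 HCC1143 libraries and was at least 639-fold below the median of 121 CPM, and HIST1H2BI had 0 counts and was at least 497-fold lower. HIST1H3F had 0 counts as well (at least 146-fold lower), and HIST1H3G had 2, 3 and 1 counts. HIST1H1D had 2, 0 and 1 counts, 1260-fold lower (431 to 6110). The genes on either side were at 23.6 CPM (HIST1H3E, median of the others 19.5) and 129 CPM (HIST1H4H, 123), so the run had sharp ends. BTN3A2, the next coding gene outside the histones, was at 19.2 CPM in HCC1143 against a median of 43.4 CPM.

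Away from that run, HIST1H3A had 1, 0 and 0 counts in HCC1143 (650-fold below 40.9 CPM, 117 to 25700) and was near 0 in no other line. In HCC1143 HIST1H4D had 4, 2 and 0 counts, and both HIST1H3I and HIST1H4L had none (at least 187-fold and 320-fold lower). HIST1H1B, the neighbour of HIST1H3I, was near 0 in MDA-MB-231 and high in HCC1143, at 530, 560 and 637 CPM in the 3 libraries, against a median of 305 CPM in the other lines. HFE, a coding gene between histone genes of the first block, was also near 0 in HCC1143, at 0.503 CPM against a median of 18.3 CPM.

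HIST1H2BB and HIST1H3C, adjacent genes that together span 2545 bp (26043277 to 26045821), were near 0 together in BT-20, HCC1143, HCC1187 and HCC1395, and each was near 0 in no other line. HIST1H3C had 4, 6 and 1 counts in BT-20, 3, 0 and 0 in HCC1143, 0, 0 and 0 in HCC1187 and 3, 10 and 2 in HCC1395, against a median of 164 CPM. It was 300-fold lower in BT-20 (167 to 600), 867-fold in HCC1143 (297 to 4200), at least 941-fold in HCC1187 and 273-fold in HCC1395 (166 to 488). HIST1H2BB, with a median of 54.1 CPM in the other lines, was 272-fold lower in BT-20 (106 to 1000), 66.1-fold in HCC1143 (38.7 to 124), 156-fold in HCC1187 (71.5 to 424) and 35.6-fold in HCC1395 (26 to 50.4). On either side, HIST1H2AB had 63.8 CPM in BT-20, 51.8 in HCC1143, 38.1 in HCC1187 and 106 in HCC1395, and HIST1H1C had 410, 535, 255 and 635 CPM in the same order of lines. By edgeR the low HIST1H3C in HCC1187 had an adjusted p of 4.34e-09. That call was lost without HCC1187 replicate 1, although no HCC1187 library had a count of the gene. The lost call therefore does not show that the low level rested on replicate 1. In BT-20, HCC1143 and HCC1395 edgeR gave no usable SE for HIST1H3C and no call. In MDA-MB-231, with the most genes near 0, HIST1H3C was at 230, 201 and 98.3 CPM and HIST1H2BB at 75.4, 69.9 and 32.3 CPM.

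At the far end of the last block, HIST1H3I and HIST1H4L were near 0 together in HCC1143, HCC1395, Hs578T and MDA-MB-231, and HIST1H4L also in BT-20 (2, 4 and 4 counts, 122-fold lower, 66.2 to 254). Hs578T added the linker histone HIST1H1B to this run, with 1, 2 and 3 counts against a median of 335 CPM (911-fold lower, 419 to 2480), over 6662 bp in all. The edgeR log2 fold change of HIST1H1B in Hs578T against the mean of the other lines was −9.12 ± 0.52 (SE, adjusted p 3.58e-20). In HCC1395 the run stopped short of HIST1H1B, which had 555 CPM there. HIST1H3I in BT-20 had 1.89 CPM and lay just above the 5% limit. ZNF184, the coding gene before the run, was at 108 CPM in HCC1395 and 46.5 CPM in Hs578T, against medians of 46.5 and 47.2 CPM.

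The other runs were single genes. HIST1H1A, the first gene of the cluster, had 2, 1 and 2 counts in HCC1395 (231-fold below 46.1 CPM, 98.9 to 711) and 1, 1 and 2 counts in MDA-MB-453 (193-fold, 75.4 to 709). In HCC1143 HIST1H1A had 258, 324 and 263 CPM, the highest of any line. The log2 fold changes of HIST1H1A by edgeR were −6.83 ± 0.40 in HCC1395 (adjusted p 8.63e-20), −6.73 ± 0.42 in MDA-MB-453 (7.78e-19) and 4.14 ± 0.10 in HCC1143 (3.29e-34). TRIM38, the coding gene next to it outside the window, was near 0 in MDA-MB-453 as well (1.67 CPM, median of the others 58.9), and stood at 44.2 CPM in HCC1395.

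HIST1H3E was near 0 in 4 lines, and in 3 of them the genes on both sides had reads. It had 0, 3 and 2 counts in HCC70 (156-fold below 23.4 CPM, 66.9 to 481), 1, 7 and 6 in BT-549 (36.9-fold, 22.0 to 67.5), 0, 3 and 3 in HCC1395 (97.5-fold, 44.8 to 266) and 3, 3 and 0 in MDA-MB-231 (60.5-fold, 27.8 to 165). Its neighbours HIST1H2AE and HIST1H1D stood at 252 and 327 CPM (HCC70), 359 and 340 CPM (BT-549) and 352 and 110 CPM (HCC1395). By edgeR, HIST1H3E had a log2 fold change of −5.74 ± 0.39 in HCC70 (adjusted p 8.78e-18) and −3.85 ± 0.33 in BT-549 (6.85e-14), the largest of any member in both lines.

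HIST1H4D in BT-20 had 0, 0 and 4 counts (336-fold below 66.8 CPM, 131 to 1230), with HIST1H2BF next to it at 46.6 CPM. On its other side HIST1H2BE was also low in BT-20, at 0.893 CPM against a median of 17.4 CPM (log2 fold change −4.01 ± 0.24, edgeR adjusted p 1.02e-19), just above the 5% limit. The edgeR log2 fold change of HIST1H4D in BT-20, −7.26 ± 1.29 (adjusted p 4.78e-06), lost its call without BT-20 replicate 2. That library had no count of HIST1H4D, so the loss does not show that the low level rested on it. In Hs578T, HIST1H3G had 5, 8 and 1 counts (64.4-fold below 55.2 CPM, 38.4 to 118) between HIST1H2BH at 98.4 CPM and HIST1H2BI at 37.6 CPM. HIST1H2BM in Hs578T had 7, 0 and 0 counts (23.6-fold below 10.1 CPM, 11.5 to 58.8), and its median is close to the limit of 10 CPM.

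Several stretches of genes were near 0 in no line. The longest ran from HIST1H4H to HIST1H2AJ (26277609 to 27814740), across both large gaps, and its 9 judged genes stayed at or above 7.21 CPM in every line. Another held 7 genes from HIST1H1C to HIST1H2BE, among them HIST1H1C, HIST1H1E and HIST1H2BD, with a lowest value of 0.893 CPM for HIST1H2BE in BT-20. HIST1H4B, HIST1H3B and HIST1H2AB made a further stretch, whose lowest value was 3.84 CPM for HIST1H3B in HCC1143.

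Some members showed the opposite pattern and had reads in few lines. HIST1H4F, whose promoter is shown above, had 177, 131 and 144 CPM in HCC1806, 78.4, 57.8 and 69.2 CPM in HCC38, 55.0, 35.9 and 37.9 CPM in MDA-MB-453 and 42.3, 28.5 and 26.8 CPM in MDA-MB-157. The other 11 lines had 0 to 2.93 CPM, 9 of them under 1 CPM, and no library of theirs reached those of the 4 lines. The edgeR log2 fold changes of HIST1H4F were 8.90 ± 0.17 in HCC1806 (adjusted p 1.55e-32), 7.61 ± 0.19 in HCC38 (3.43e-28) and 6.10 ± 0.24 in MDA-MB-157 (2.44e-22), against a mean that includes lines with no count. For the same gene the SE was 14188.74 in BT-20 and 14306.98 in HCC1143, which had no count. The smaller SEs are therefore not to be read as the spread of these folds. HIST1H4F lies between HIST1H1D and HIST1H4G and codes for the same H4 protein as 10 other members.

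HIST1H4I had a median of 1.87 CPM and was above 10 CPM in MDA-MB-453 (48.1), BT-20 (32.6), HCC38 (25.2), HCC1937 (23.7) and HCC1395 (22.2), with its lowest value of 0.429 CPM in Hs578T. In MDA-MB-436 HIST1H4I had 0.347, 0.473 and 0.762 CPM, and its edgeR log2 fold change of −3.09 ± 0.49 (adjusted p 4.98e-07) was the largest of any member there. HIST1H4A passed 10 CPM in HCC1806 alone (17.9 CPM), HIST1H3J in BT-549 (12.6 CPM) and HCC1395, and HIST1H2BM in 7 lines.

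The mix of H1 genes differed between lines. HIST1H1C made up 84.0% of the H1 counts in MDA-MB-231 and 76.3% in HCC38, against a median of 34.5% over lines and 23.8% in HCC1806. In MDA-MB-231 its level of 687, 823 and 636 CPM stayed under the 2-fold limit (log2 fold change 0.57 ± 0.15), while HIST1H1A, HIST1H1B and HIST1H1D were near 0, and HIST1H1E made up a further 15.8%. In HCC38, HIST1H1C was high in itself, at 2160, 2080 and 1890 CPM, with an edgeR log2 fold change of 2.37 ± 0.12 (adjusted p 7.29e-22). HCC1143 drew 37.2% of its H1 counts from HIST1H1B and 18.0% from HIST1H1A (median 2.81%), with 0.0122% from HIST1H1D. HIST1H1D reached its highest share of 37.1% in MDA-MB-453, and HIST1H1T stayed at or below 0.149%.

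**Figure D3:**
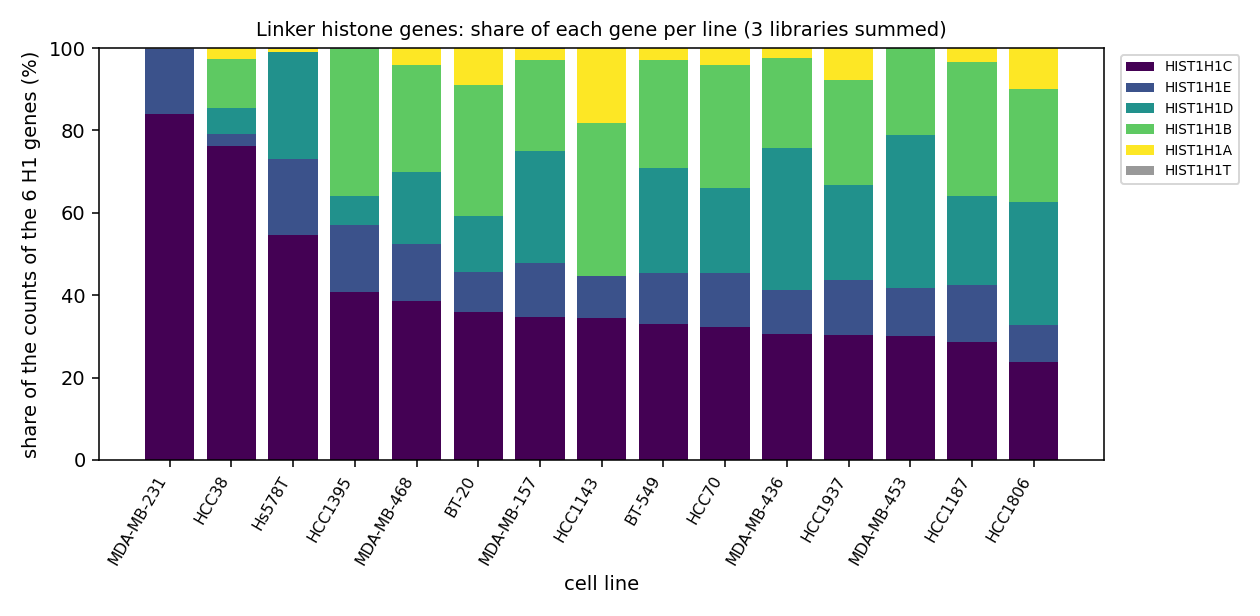
Share of each of the 6 H1 genes in the H1 counts of each line (stacked bars, percent of the summed libraries). HIST1H1C fills 84.0% of the bar of MDA-MB-231 and 76.3% of that of HCC38, and HIST1H1D has no visible part in MDA-MB-231 and HCC1143.

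The H3 genes, which encode 1 protein, showed the widest range of their sum. Summed H3 counts were 116 ± 12.3 CPM in HCC1143 (SD, n = 3), the lowest of the lines, followed by 270 ± 101 CPM in HCC1187, and were highest at 1120 ± 174 CPM in HCC1806. From line sums the ratio of the highest to the lowest line was 9.65 for H3 and 7.02 for H4, against 3.79 for H1, 3.43 for H2B and 3.04 for H2A. HIST1H3H alone gave 75.4% of the H3 counts in HCC1143 (median of lines 12.1%), at 75.5, 108 and 81.6 CPM, which passed no call. HCC1143 had 2 H3 genes at or above 10 CPM. In MDA-MB-231, HIST1H3C gave 62.6% of the H3 counts (median 30.4%), HIST1H2AC 54.5% of H2A (median 15.5%), HIST1H2BD 38.6% of H2B (median 21.2%), and HIST1H4B and HIST1H4C 44.8 and 31.1% of H4.

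Over all members, the summed level was 10600, 9480 and 8610 CPM in HCC1806 and 3110, 3010 and 2200 CPM in MDA-MB-231, with the line sums at 9490 and 2810 CPM, a ratio of 3.38. HCC1143, with 11 genes near 0, had a sum of 5250 CPM, which is also the median of the lines. MDA-MB-157 had no gene near 0 and the next lowest sum, 3130 CPM. A low sum and genes near 0 therefore did not always go together. By count, 24 members reached 10 CPM in MDA-MB-231, 28 in HCC1143 and 45 in HCC1806.

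**Figure D4:**
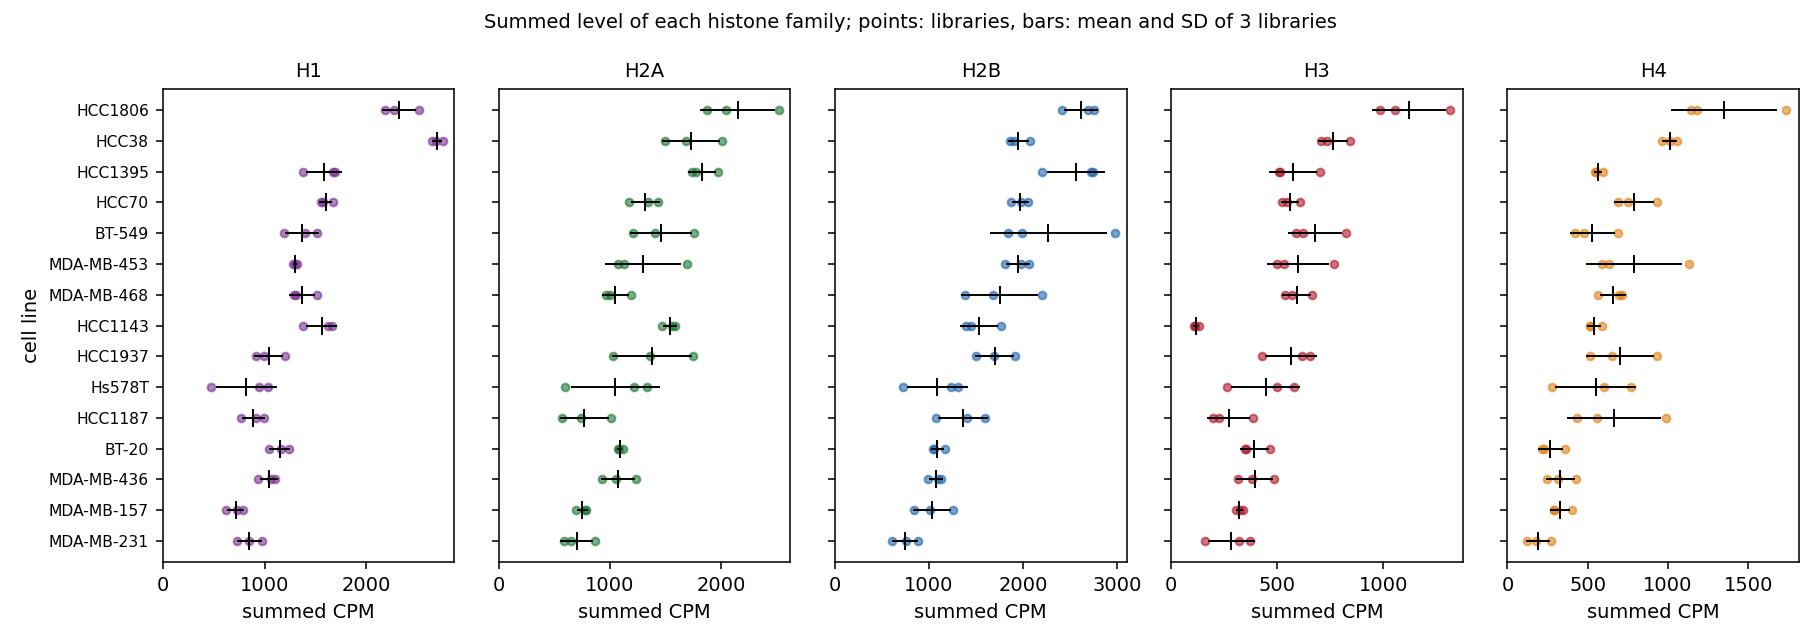
Summed CPM of each histone family (5 panels) in each library (points), with the mean and SD of the 3 libraries of a line. HCC1143 has the lowest H3 sum (116 CPM) and an H1 sum of 1560 CPM, and HCC1806 has the highest H2A, H2B, H3 and H4 sums.

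Each line was set against the average of its 14 counterparts by edgeR (adjusted p at most 0.05 and at least 2-fold), counted over the 50 genes that passed the filter. That mean is taken over log levels, so lines with no reads pull it down, and a line at an ordinary level can be called higher. Of the 47 pairs near 0, edgeR called 32 lower and left 15 without a call, for example HIST1H2BI, which has no count in either of 2 lines. The limma-trend test on log2 CPM with a prior count of 2 called all 47 lower. In all, edgeR called 242 of the pairs higher (32.3%, against 16.2% of pairs over all genes) and 98 lower (13.1%, against 12.5%). Limma-trend called 219 higher (29.2%, against 13.3%) and 129 lower (17.2%, against 13.5%). A stricter reading kept the calls that were also at least 2-fold from the median of the other lines, which left 96 higher (12.8%, against 13.7% over all genes) and 89 lower (11.9%, against 11.4%). That reading starts from the edgeR calls, so the 15 pairs near 0 without a call are not in it.

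MDA-MB-231 had 25 of 50 genes called lower (background 10.5%) and 3 higher (15.0%), and 24 of the lower calls were also 2-fold below the median (48.0%, against 9.4% of all genes). Its median member log2 fold change was −1.34, against 0.03 over all genes. The 3 genes called higher were HIST1H3C (2.73 ± 0.23, adjusted p 8.98e-14), HIST1H2BB (1.79 ± 0.19, 5.9e-11) and HIST1H2AC (1.09 ± 0.18, 2.11e-06), of which the first and second are near 0 in 4 other lines. HCC1143 had 14 lower (11.3%) and 9 higher (18.4%), with all 14 lower calls 2-fold below the median (28.0%, against 9.69%). MDA-MB-157 had 14 lower (12.4%) and 6 higher (20.0%), of which 11 lower calls were 2-fold below the median (22.0%, against 9.32%). Hs578T had 10 lower (9.56%) and 7 higher (20.9%), with all 10 lower calls 2-fold below the median (20.0%, against 8.45%). Limma-trend called 16 lower (11.3% of all genes) and 3 higher (14.9%) in Hs578T.

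HCC1806 had 39 genes called higher (15.9%) and 2 lower (13.7%), and 24 of the higher calls were also 2-fold above the median (48.0%, against 12.1%). HIST1H1D in HCC1806 was at 659, 846 and 595 CPM. HCC38 had 26 higher (13.8%) and 0 lower (10.2%), of which 14 were 2-fold above the median (28.0%, against 10.1%). HCC1395 had 19 higher (14.4%) and 5 lower (17.7%), of which 13 higher calls were 2-fold above the median (26%, against 12.4%). Limma-trend called 18 higher (12.7%) and 10 lower (18.0%) in HCC1395, where 6 genes were near 0. HCC70 had 28 higher (17.7%) and 2 lower (22.9%), but 8 of the 28 were 2-fold above the median (16.0%, against 11.8%).

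Among the remaining lines, HCC1937 had 21 genes called higher (14.5%) and 0 lower (10.8%), BT-549 had 20 higher (13.3%) and 3 lower (10.7%), and MDA-MB-453 had 17 higher (17.7%) and 1 lower (14.6%). MDA-MB-468 had 16 higher (14.7%) and 2 lower (9.19%), BT-20 had 12 higher (14.2%) and 8 lower (11.3%), MDA-MB-436 had 10 higher (16.4%) and 6 lower (10.9%) and HCC1187 had 9 higher (16.4%) and 6 lower (12.5%). In these lines 1 to 7 of the higher calls were 2-fold above the median. That was 1 of 50 genes in HCC1187 (against 13.6% of all genes), 2 in MDA-MB-436 (15.1%) and 4 in MDA-MB-468 (12.5%). It was 5 in BT-549 (10.6%), 6 in HCC1937 (12.1%), 7 in MDA-MB-453 (16.6%) and 7 in BT-20 (11.7%). Among these lines BT-20 alone lay above the share of all genes by this rule. The largest change in HCC1937 and in MDA-MB-468 was HIST1H4L, at 154, 159 and 115 CPM in HCC1937 (3.67 ± 0.16, edgeR adjusted p 3.35e-24) and at 109, 174 and 164 CPM in MDA-MB-468 (3.70 ± 0.16, 2.6e-24), a gene near 0 in 5 other lines.

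**Figure D5:**
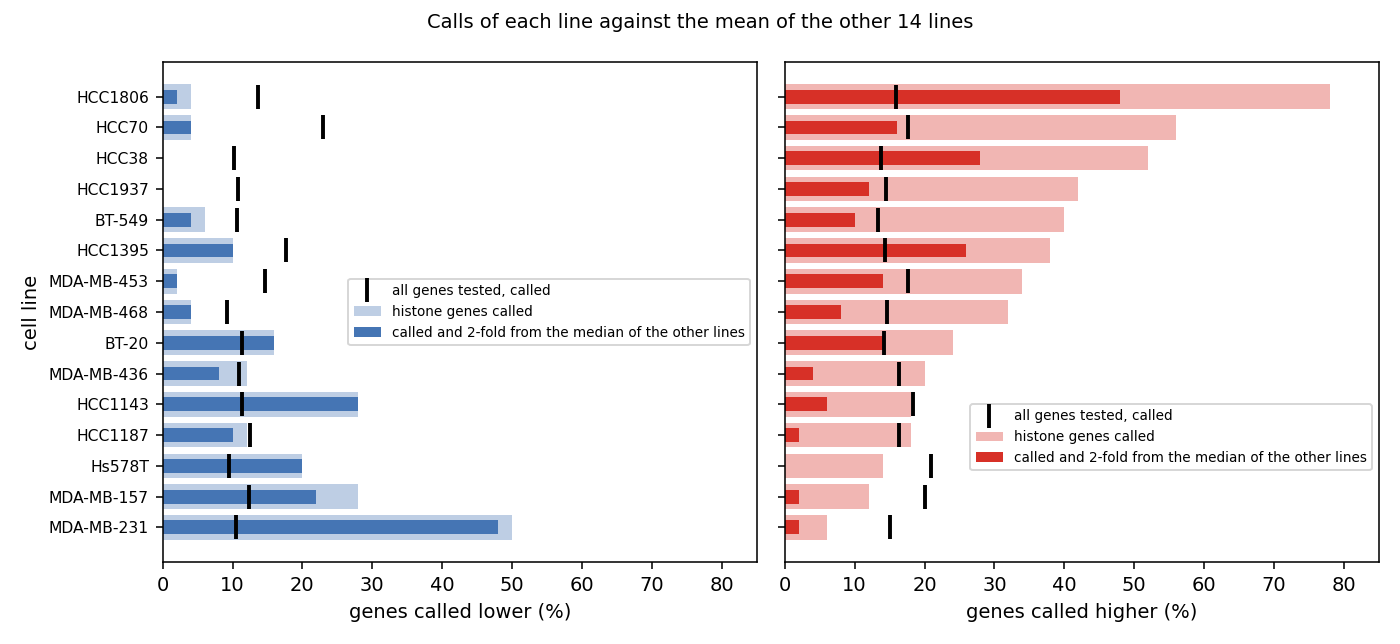
Percent of the 50 tested histone genes called lower (left) and higher (right) by edgeR in each line against the mean of the other 14 lines (pale bars), those also 2-fold from the median of the other lines (dark bars) and the percent of all genes called (black ticks). The dark bars pass the ticks furthest in MDA-MB-231 for lower calls (48.0%) and in HCC1806 for higher calls (48.0%). The ticks do not carry the median rule of the dark bars. With that rule the shares of all genes are 9.4% lower in MDA-MB-231 and 12.1% higher in HCC1806.

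The levels of neighbouring genes were often correlated over the lines. Over 15 lines, adjacent members among the 42 with a median of at least 10 CPM had a median Pearson r of log2 levels of 0.52 (41 pairs, quartiles 0.30 and 0.86). All pairs within 50 kb had a median of 0.47 (141 pairs), pairs 50 to 500 kb apart 0.21 (256) and pairs further apart 0.35 (464). These are descriptions of points that share their libraries and depth. There were 8 divergent pairs of an H2A and an H2B gene with starts less than 1000 bp apart. HIST1H2BG and HIST1H2AE, 283 bp apart, were near 0 together in MDA-MB-231 and had an r of 0.97. HIST1H2AJ and HIST1H2BM, 304 bp apart, had an r of 0.88. In Hs578T, where HIST1H2BM was near 0, HIST1H2AJ was called lower as well but was not near 0, at 34.6 CPM against a median of 172 CPM (log2 fold change −2.38 ± 0.25, edgeR adjusted p 4.53e-11). HIST1H2BC and HIST1H2AC, 219 bp apart, had an r of 0.0.

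Of 150 pairs that could be judged among the 17 other coding genes of the window, 3 were near 0 (2.0%, against 0.963% over all genes), HFE in HCC1143, BTN3A2 in MDA-MB-453 (1.97 CPM) and BTN2A2 in BT-20 (0.546 CPM), and for 10 such genes the median ratio of the highest to the lowest line was 8.34. In the gene lists that follow, every gene tested differed among the lines, in a table where 98.2% of genes did, so that alone says nothing of a list. The shares of gene-line pairs called are to be read against 16.2% higher and 12.5% lower over all genes. Of 17 replication-dependent histone genes outside the window, 10 were tested, with 35 pairs higher (23.3%) and 18 lower (12%). Of these, HIST2H2BF and HIST2H3D were near 0 in HCC1143 (0.314 and 0.189 CPM, medians of lines 52.4 and 37.1), and HIST2H2AB reached its highest level there (459 CPM). HIST2H2AA3 and HIST1H2AA did not pass 2.00 and 2.69 CPM. Their sum was highest in HCC1143 (1350 CPM) and lowest in MDA-MB-157 (207 CPM). Among 12 replacement and variant histone genes, most of which are made outside S phase as well, 11 were tested. They had 24 pairs higher (14.5%) and 23 lower (13.9%), and H2AFY2 was near 0 in BT-549, Hs578T and MDA-MB-231. H2AFJ ranged from 10.5 to 270 CPM, H1FX from 16.1 to 57.0 CPM and H2AFV from 117 to 507 CPM.

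Factors of histone gene transcription and 3′ end processing were measured in the same libraries. Of 20 listed, 17 were tested, with 7 pairs higher (2.75%) and 13 lower (5.1%). No pair that could be judged was near 0, but CPSF1, which was not tested, did not exceed 0.0597 CPM in any line. Whether reads of CPSF1 were lost in counting was not tested. The sum of the list was lowest in Hs578T (1020 CPM) and highest in HCC1395 (1640 CPM). NPAT was at 59.4 ± 5.12 CPM in MDA-MB-231 and 36.9 ± 3.48 CPM in HCC1143, the lowest line, with the highest at 83.8 CPM in BT-20 (edgeR adjusted p among lines 1.69e-10). CASP8AP2, a partner of NPAT, was lowest in MDA-MB-231 (45.5 CPM) and highest in HCC1143 (238 CPM, adjusted p 9.68e-18). SLBP was lowest in MDA-MB-157 (44.5 CPM) and highest in HCC1395 (221 CPM, adjusted p 3.94e-16). LSM11, a subunit of the U7 particle that cuts histone mRNA ends, ranged from 6.32 to 101 CPM, MIF4GD from 3.35 to 81.6 CPM, LSM10 from 2.78 to 10.8 CPM and POU2F1 from 14.4 to 39.7 CPM.

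The 15 histone chaperones tested had 13 pairs higher (5.78%) and 14 lower (6.22%), with sums from 1910 to 4190 CPM, and UBN1 was near 0 in MDA-MB-468 (0.0522 CPM, median of lines 88.7). NAP1L1 ranged from 252 to 1980 CPM, HIRA from 4.28 to 14.1 CPM and NAP1L4 from 0.317 to 4.69 CPM. DAXX, a listed chaperone, did not exceed 0.724 CPM in any line and was not tested. E2F2, listed with the S-phase genes, did not exceed 0.104 CPM in any line and was not tested. Whether reads of DAXX and E2F2 were lost in counting was not tested. The 19 S-phase and replication genes tested had 28 pairs higher (9.82%) and 32 lower (11.2%), and none was near 0. Their sum was lowest in MDA-MB-157 (2120 CPM) and MDA-MB-231 (2300 CPM), the 2 lines with the lowest histone sums, was 4710 CPM in HCC1143 and 3410 CPM in HCC1806, and was highest in HCC1395 (4910 CPM). CCNE1 ranged from 8.29 to 131 CPM, CCNE2 from 36.1 to 377 CPM, CCNA2 from 161 to 432 CPM and RRM1 from 256 to 580 CPM. The part of the S-phase levels in the histone sums was not tested.

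By growth medium, no member passed the test between the 5 L-15 lines and the 8 RPMI 1640 lines, with the line as the unit (edgeR, adjusted p at most 0.05 and at least 2-fold), and no gene of the table did in either direction (0.0%). Summed member levels were 2810 to 5860 CPM in L-15 lines (median 3890) and 3990 to 9490 CPM in RPMI 1640 lines (median 6140), and the groups overlap. All 50 log2 differences were negative, with a median of −0.89 against −0.03 over all genes. At an unadjusted p of 0.05, 12 members were lower in L-15 lines and 0 higher, against 5.6 and 5.83% of all genes. The smallest p belonged to HIST1H3H (log2 difference −1.32 ± 0.35, adjusted p 0.28 by edgeR) and HIST1H2BL (−1.54 ± 0.42, adjusted p 0.28). DESeq2 called 4 members lower in L-15 lines, HIST1H4H, HIST1H2BK, HIST1H2BL and HIST1H3H (4 of 50, against 1.24% of all genes), and 0 higher (0.868%). A limma-voom fit of the libraries took the batch run as a covariate and allowed the libraries of a line to be correlated. It called 2 lower, HIST1H4H and HIST1H2BK (2 of 50, against 0.817%), and 0 higher (0.285%). Medium and line collection go together in the labels, since all L-15 lines are MDA-MB lines, which cannot be told apart.

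The study's title names MYC-high cells but its labels sort no line by MYC, so every gene was tested for a slope on MYC over the 15 lines. MYC ranged from 4.25 log2 CPM in MDA-MB-453 to 7.77 in MDA-MB-231. No member rose or fell with MYC by edgeR, in a table where 0.00376% of genes rose and 0.139% fell, and none had an unadjusted p under 0.05. The median slope was −0.02 per log2 unit of MYC (0.01 over all genes), with 23 positive and 27 negative. HIST1H2AC (0.46 ± 0.24, adjusted p 0.865) and HIST1H2BE (−0.77 ± 0.51, unadjusted p 0.149) had the smallest p. A limma-voom fit with the run as a covariate and the libraries of a line correlated called 1 member, HIST1H4F, which fell with MYC (1 of 50, against 0.972% of all genes), and 0 rising (0.37%).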

How the data were processed

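RNA of 15 breast cancer cell lines was measured in 45 libraries, 3 per line. The authors deposited raw counts per gene and library, in which every one of the table's sample columns was matched to a line and replicate. Per the submitters' processing notes, the tools were bcl2fastq 2.20.0.422, FastQC, MultiQC, Trimmomatic, STAR and featureCounts, with GRCh38.p12. Which gene annotation was used, whether strand was counted and what was done with reads of several matches is not given in the sources used here, and such reads could be split between close relatives or dropped. Identifiers were matched to GENCODE 29 (58275 of 64485, 90.4%).

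From the counts, CPM were computed as counts scaled to the total of a library, or of the summed libraries of a line, without further scaling. Tests used edgeR 4.0.16 (R 4.3.3): TMM scaling, filterByExpr (minimum count 10, minimum total 15), quasi-likelihood tests over all genes, two-sided, with Benjamini-Hochberg adjustment at 0.05 over the whole table. Comparisons were the F test among lines, each line against the mean of the other 14 (also at least 2-fold), L-15 against RPMI 1640 lines and the slope on log2 CPM of MYC, the last with 1 summed library a line. BT-20 and Hs578T, each alone in its medium, took no part in the medium test. The SE printed with an edgeR log2 estimate is its absolute value divided by the square root of the test's F statistic. For some genes at or near 0 counts this gave no usable value. Where any line in the comparison has 0 counts of the gene, the printed SE is not to be read as the spread of the fold. Depth per library was 2312138 to 14653677 counts, and intervals are exact 95% Poisson intervals. DESeq2 1.42.0 and limma 3.58.1 were alternatives. The tests were tried on simulated data, whose outcome is not reported here and lends nothing to the medium and MYC results.

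The histone genes and all lists were chosen with earlier results of these data known. Named are the genes near 0 in some line, the highest of each family, the widest and narrowest ratios, the largest change per line, the smallest p for medium and MYC, coding genes flanking runs, NPAT, CASP8AP2, SLBP, and the genes with the largest and smallest F of each list. Further genes were named after their values were seen, among them HIST1H3H, HIST1H4A, HIST1H4B and HIST1H2AC.

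For 11 lines the replicate number goes with the batch run given in the labels (runs 3, 4 and 5), so it pairs libraries. Same-numbered libraries of different lines deviated with a median correlation of 0.06 (165 pairs, −0.18 to 0.33), against −0.03 for different numbers (330 pairs).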

Additional observations from a re-analysis of the deposited data

How the results depend on the processing

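The fold change of the gene with the largest call in each line was followed through the alternatives, and none changed sign. Fold changes of the other named genes were not followed in this way. Over those genes and the counts per line, 420 values kept their call or stayed within 1.5 times, 28 counts moved further, and 2 genes lost their call, each with 1 replicate left out. The balance of calls turned in BT-20 (12 higher and 8 lower by edgeR, 11 and 12 by limma-trend, 7 and 8 with the median rule) and HCC1187 (9 and 6, 6 and 8, 1 and 5). The count of histone gene and line pairs called higher was 242 (32.3%, against 16.2% over all genes). It moved to 108 among the 11 lines of runs 3 to 5, where the share of 19.6% was close to the 16.8% over all genes. Among the 4 lines of runs 1 and 2 it was 66 (33%, against 14.8%). It was 96 (12.8%, against 13.7%) when a call also had to be 2-fold from the median of the other lines. That rule was chosen after seeing the data. Lower calls moved from 98 (13.1%, against 12.5%) to 43 among the 4 lines (21.5%, against 13.6%). Fewer lines give fewer pairs, and the mean they are set against changes too. The share of higher calls among all calls was 71.2%, and 56.8, 60.6, 65.6 and 62.9% with 11 lines, with 4 lines, with DESeq2 and with limma-trend. For medium, DESeq2 called 4 genes and limma-voom 2, all lower in L-15 lines, against 0 by edgeR. For MYC, limma-voom called 1, falling, against 0 by edgeR, and the cause was not tested. Both limma-voom fits were on libraries, with the run as a covariate and the libraries of a line correlated. In the line comparisons, edgeR with the run added as a covariate gave 50 genes among lines, 239 higher and 98 lower pairs. With 1 replicate left out, 49 to 50 genes differed among lines, 236 to 247 pairs were higher, 90 to 94 lower and 47 to 50 near 0, and medium and MYC gave 0 with each line left out. Limits of 2% or 10% of the median, a median of at least 5 CPM, TMM scaling and each library alone gave 44 to 52 pairs near 0. Limma-trend, added after seeing the data, gave 219 higher and 129 lower pairs. HIST1H3C in HCC1187 (−11.13 without replicate 1) and HIST1H4D in BT-20 (−6.60 without replicate 2) lost their edgeR calls. In both cases the library left out had no count of the gene, so the loss does not show that the low level rested on it. Depth limits the fold of genes near 0, where 1 read is a large step.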
